A study of Saccharomyces cerevisiae with 4 samples.

Results

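The genes described here encode 2 corepressor machines of budding yeast, the Sin3-Rpd3 histone deacetylase (SIN3, RPD3, SAP30, UME1, UME6 and PHO23) and the Cyc8-Tup1 complex (CYC8 and TUP1). They were found by matching each symbol to the gene names of the array probes. All 8 genes were matched, out of 6336 genes on the array, each by 1 probe that names no other gene and that was printed as 2 spots. The members were selected on their shared role with the z-scores of these same 4 comparisons in view, so their values are given as a description, and no test was made of them.

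The RNA came from the parental Saccharomyces cerevisiae strain S288C and 3 strains derived from it by laboratory evolution. AT22 was evolved from S288C under acetic acid and acidic pH. TTY23 was evolved from S288C under elevated temperature, and TAT12 was evolved from TTY23 under acetic acid and acidic pH. Each evolved strain is a single isolate that carries many mutations, so no single allele separates the groups. The potential mutations that the paper lists for TTY23 include single-nucleotide changes in SIN3, CYC8 and PHO23, whose effect was not tested here. All strains were grown for the arrays without stress, in defined medium with 2% glucose at pH 5.0, 30 °C and 250 rpm per the labels, and were sampled in the middle of exponential growth. AT22 was compared with S288C, and TAT12 was compared with each of S288C, TTY23 and AT22.

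Rpd3 removes acetyl groups from histone tails, and the scaffold Sin3 ties it to proteins that choose the promoters. The large form of the complex contains Sap30, Pho23 and Ume1 and is brought to the URS1 element of early meiotic genes by the DNA-binding protein Ume6, which holds these genes silent in dividing cells. Cyc8 (also called Ssn6) and Tup1 bind no DNA themselves and are brought to promoters by repressors such as Mig1, Rox1 and the α2 protein. Through them they keep glucose-repressed, hypoxic, mating-type-specific, DNA damage-inducible and flocculation genes low.

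Each pair of strains was hybridised on 2 arrays with the dyes Alexa555 and Alexa647 exchanged. A value is the log2 ratio of the first-named strain over the second, so that 1 stands for a doubling, 0 for no difference and a negative value for a lower level in the first-named strain. Dye bias adds to the ratio of 1 array and cancels when both arrays of a swap are averaged. The 2 arrays of a swap count as 1 replicate, each comparison has n = 1, and the distance between its arrays is the only error available. The z-score sets the mean log2 ratio of a gene against the 100 genes nearest to it in brightness, and a gene was called when the absolute z-score was above 2. A gene was taken as above the empty spots where its net signal in each dye exceeded the 95th percentile of spots printed without an oligonucleotide. The ratios compare equal portions of whole-culture RNA, so fewer cells with a transcript and less transcript per cell cannot be told apart.

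On the 8 arrays, 42.6 to 69.6% of genes were above the empty spots, the median signal over local background was 2.51 to 3.52 in Alexa555 and 1.22 to 3.09 in Alexa647, and duplicate spots correlated across genes with r from 0.79 to 0.94. After turning, the arrays of a swap correlated across genes with r between −0.17 and 0.13 only. The direction of the second arrays with S288C is not settled. Log2 ratios of the second array of AT22 with S288C correlated with those of the second array of TAT12 with S288C at r = −0.59. The first arrays of the same comparisons correlated at r = 0.18. These correlations cannot show whether a second array is reversed, or which of them. Turning that of AT22 moved the correlation within its swap from −0.03 to 0.03, and TAT12 over S288C had 0.09 as labelled. Values of AT22 over S288C are given in both directions, as labelled and with its second array turned. Those of TAT12 over S288C, and values derived from them, are given and called as labelled. For CYC8, TUP1 and SIN3 the mean of TAT12 over S288C with its second array turned is added.

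Of the 32 mean values (8 genes in 4 comparisons), 3 passed a z-score of 2 and none reached a doubling or a halving. TUP1 was called lower in TAT12 than in S288C and higher in TAT12 than in AT22, and SIN3 was called lower in TAT12 than in TTY23. Of all 6336 genes, 3.11% were called higher and 1.94% lower in TAT12 over S288C, 3.08% higher and 2.43% lower in TAT12 over TTY23, 3.38% higher and 0.9% lower in TAT12 over AT22, and 0.537% higher and 4.09% lower in AT22 over S288C. With the second array of AT22 over S288C turned, SIN3 in that comparison passed as well, lower in AT22. Both arrays of a swap had the same sign in 22 of the 32 values as labelled and in 28 of the 32 with that array turned. The plot of log2 ratios by array shows all 64 array values.

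**Figure D1:**
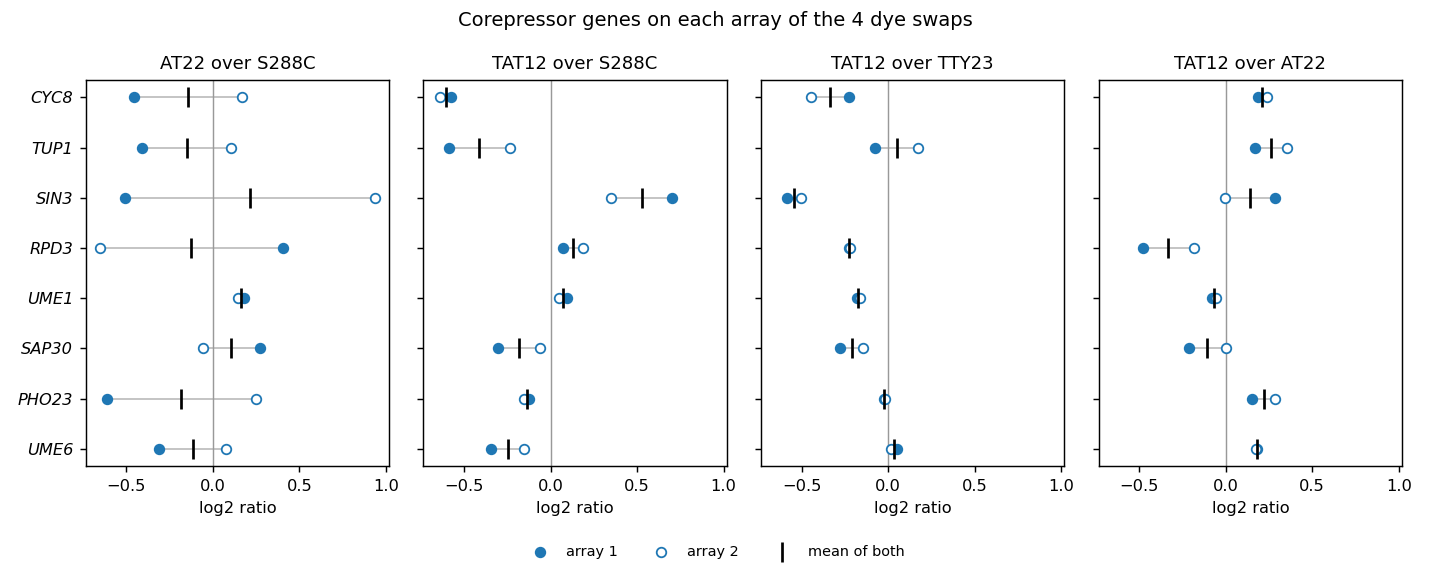
Log2 ratio of the first-named strain over the second for the 8 corepressor genes (rows) in the 4 dye swaps (panels). Filled circles are the first array, open circles the second array after turning, grey lines join both, and black bars are their mean. For AT22 over S288C as labelled the arrays lie far apart, and only UME1 keeps 1 sign. For TAT12 over S288C as labelled they lie on the same side of 0 for all 8 genes.

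CYC8, the tetratricopeptide-repeat subunit that contacts the DNA-bound repressors, had the lowest log2 ratio of the 8 genes in TAT12 over S288C. The mean net signals of its spots were 66.4 in TAT12 and 130.2 in S288C on the first array, and 229.5 in TAT12 and 358.5 in S288C on the second array. After normalization the log2 ratios were −0.58 and −0.64, with a mean of −0.61. As labelled, both arrays and all 4 spots lay below 0, although on the first array CYC8 was not above the empty spots, so no fold is given. With the second array of this swap turned, the mean was 0.03 and the arrays had opposite signs. The recomputed z-score was −1.87, just short of the threshold, while the z-score deposited by the authors was −2.21, just past it.

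Relative to TTY23, from which TAT12 descends, CYC8 gave −0.23 and −0.44 in TAT12 (mean −0.34, z-score −1.33). Both arrays were again below 0, with CYC8 above the empty spots on each. Against AT22 the sign was the other way, with log2 ratios of 0.18 and 0.24 in TAT12 over AT22 (mean 0.21, z-score 0.62). For AT22 over S288C the arrays were split, at −0.46 and 0.17, with a mean of −0.14 as labelled and −0.31 with the second array turned. CYC8 was the member whose duplicate spots differed most, by 0.04 to 0.62 on the log2 scale within an array. One of its spots was the brighter of the pair in both dyes of all 8 arrays.

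TUP1 encodes the WD-repeat partner of Cyc8, the subunit that binds histone tails and carries much of the repression. In TAT12 its log2 ratios over S288C were −0.59 and −0.24, with a mean of −0.41 and a z-score of −2.09. TUP1 was the only member called lower in this comparison. The deposited z-score was −1.34, and each array alone gave z-scores of −1.80 and −0.68. On the first array, where the ratio was the lower one, TUP1 was not above the empty spots, so no fold is given. With the second array of this swap turned, the mean was −0.18 and the arrays had opposite signs.

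TUP1 was also called higher in TAT12 than in AT22, with log2 ratios of 0.17 and 0.36, a mean of 0.26 and a z-score of 2.15. The call rests on the second array, which alone gave a z-score of 2.17 against 0.76 for the first. On that array the net signals of TUP1 averaged 81.0 in TAT12 and 44.4 in AT22, and it was not above the empty spots, so no fold is given. The deposited z-score was also 2.15, and this was the only value of the 32 past the threshold in both calculations.

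TUP1 did not part TAT12 from TTY23, at −0.07 and 0.17 (mean 0.05, z-score 0.21). For AT22 over S288C the arrays gave −0.41 and 0.11, with a mean of −0.15, or −0.26 with the second array turned. In both comparisons the sign changed between the arrays. The duplicate spots of CYC8, TUP1 and SIN3 are plotted side by side.

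**Figure D2:**
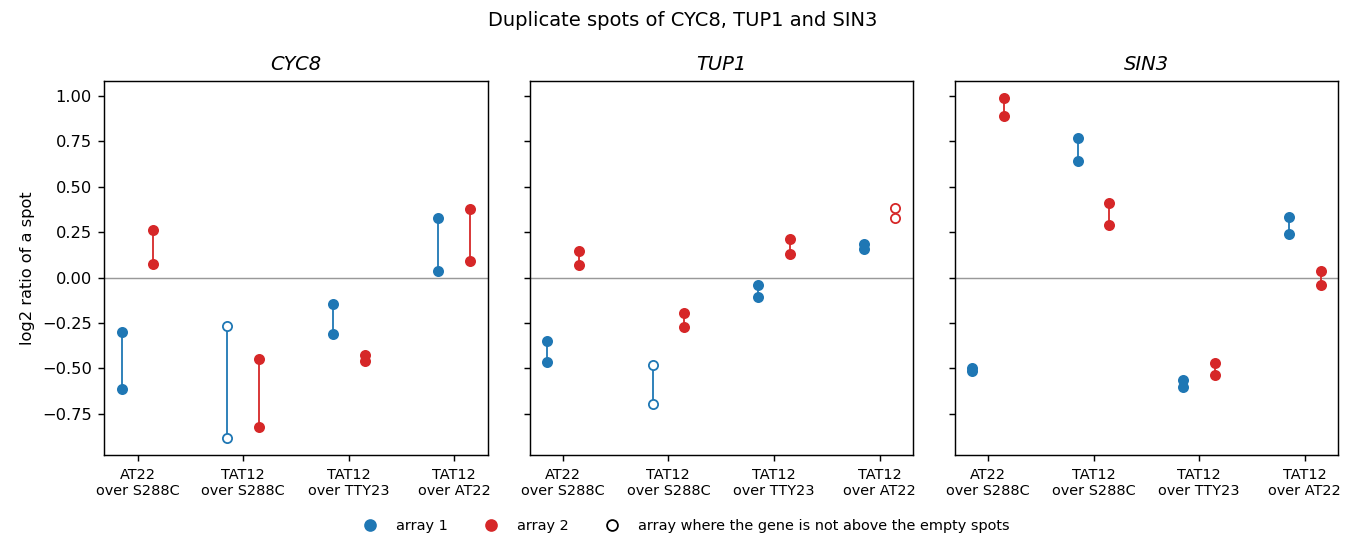
Log2 ratio of each of the 2 spots of CYC8, TUP1 and SIN3 on every array, with the first array in blue and the second, turned, in red. Lines join the spots of an array, and open circles mark arrays where the gene was not above the empty spots. The spots of SIN3 lie close together on every array, and those of CYC8 spread by up to 0.62.

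SIN3, the scaffold of the deacetylase, was above the empty spots on all 8 arrays and had the widest range of the 8 genes, with mean log2 ratios from −0.54 to 0.53 over the 4 comparisons. In TAT12 over TTY23 it gave −0.58 and −0.50, with a mean of −0.54, a 1.46-fold lower level and a z-score of −2.26. The mean net signals were 179.5 in TAT12 and 278.5 in TTY23 on the first array, and 274.5 in TAT12 and 341.3 in TTY23 on the second. All 4 spots lay below 0. SIN3 was the only member called lower in this comparison. The deposited z-score was −1.95, and each array alone gave −1.48 and −1.41, short of the threshold.

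In TAT12 over S288C as labelled, SIN3 lay above 0 on both arrays, at 0.70 and 0.35 (mean 0.53, z-score 1.69, deposited z-score 0.80). With the second array of this swap turned, its mean was 0.18 and its arrays had opposite signs. The next highest mean of any member as labelled was 0.26, that of TUP1 in TAT12 over AT22. TTY23 and S288C were compared through TAT12, by subtracting its log2 ratio over TTY23 from its log2 ratio over S288C. No array held TTY23 together with S288C, so this contrast carries the error of both swaps, each with n = 1. It also rests on the labelled direction of the second array of TAT12 with S288C, which is not settled. By this indirect route SIN3 was at 1.29 and 0.86 in TTY23 over S288C, with a mean of 1.07, a 2.10-fold higher level and a z-score of 3.28. It was the only member called in that contrast, in which 3% of all genes were called higher and 2.16% lower.

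For AT22 over S288C the arrays of SIN3 were the farthest apart of all members, at −0.51 and 0.94, with a mean of 0.22 and a z-score of 0.78. With the second array turned the mean was −0.72, a 1.65-fold lower level, with a z-score of −2.36. The direction of SIN3 in AT22 thus depends on the direction given to 1 array. In TAT12 over AT22 it gave 0.29 and −0.00, a mean of 0.14.

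RPD3, the catalytic subunit, had means between −0.33 and 0.13 and was above the empty spots on all 8 arrays. Its log2 ratios were −0.48 and −0.18 in TAT12 over AT22 (mean −0.33, z-score −1.52) and −0.23 and −0.22 in TAT12 over TTY23 (mean −0.22, z-score −0.92). RPD3 lay below 0 on every array of these comparisons, without passing the threshold. In TAT12 over S288C it was at 0.07 and 0.18, a mean of 0.13. In AT22 over S288C the arrays gave 0.41 and −0.66, with a mean of −0.12 as labelled and 0.53 with the second array turned (z-score 1.73). RPD3 and SIN3 had opposite signs on both arrays of AT22 with S288C, and each changed sign between the arrays as labelled.

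SAP30 and PHO23 encode subunits of the large complex that are needed for its repression. SAP30 was at −0.30 and −0.06 in TAT12 over S288C, −0.28 and −0.14 in TAT12 over TTY23, and −0.22 and 0.00 in TAT12 over AT22, with means of −0.18, −0.21 and −0.11. Its absolute z-score stayed under 1 in all 4 comparisons. PHO23, a PHD-finger protein, was at −0.12 and −0.15 in TAT12 over S288C, −0.02 on both arrays of TAT12 over TTY23, and 0.15 and 0.28 in TAT12 over AT22. In AT22 over S288C, SAP30 gave 0.27 and −0.06, and PHO23 gave −0.61 and 0.25. The first array of that swap held the lowest value of PHO23 anywhere.

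UME1 encodes a WD-repeat subunit found in both the large and the small Rpd3 complex. It was not above the empty spots on any of the 8 arrays, so no fold is given for it. Its log2 ratios as measured were 0.18 and 0.14 in AT22 over S288C, 0.09 and 0.05 in TAT12 over S288C, −0.18 and −0.17 in TAT12 over TTY23, and −0.08 and −0.06 in TAT12 over AT22. As labelled it was the only member with the same sign on both arrays of all 4 swaps. With the second array of AT22 over S288C turned, UME1 was split in that swap, and RPD3, UME6, PHO23 and CYC8 were the members with 1 sign in all 4.

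UME6, the zinc-cluster protein that binds URS1, was above the empty spots on all 8 arrays. It gave −0.35 and −0.15 in TAT12 over S288C (mean −0.25, z-score −0.79) and 0.18 on both arrays of TAT12 over AT22 (mean 0.18, z-score 0.77). TAT12 and TTY23 did not part, at 0.05 and 0.01. AT22 over S288C was split between −0.31 and 0.08, with a mean of −0.12. None of these values passed the threshold.

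Read by comparison, the members kept 1 sign on both arrays for 8 of 8 genes in TAT12 over S288C, 7 of 8 in TAT12 over TTY23, 6 of 8 in TAT12 over AT22 and 1 of 8 in AT22 over S288C. Over all genes the shares were 50.2%, 50.0%, 42.1% and 52.9% in the same order. For AT22 over S288C in the turned direction, 7 of 8 members kept 1 sign, against 47.1% of all genes. The count for TAT12 over S288C takes its second array as labelled, and with that array turned no member would keep 1 sign. The median log2 ratio of the members was −0.16 in TAT12 over S288C, −0.19 in TAT12 over TTY23, 0.16 in TAT12 over AT22 and −0.12 in AT22 over S288C (−0.23 turned), while the median of all genes stayed between −0.01 and 0.03. These medians describe 8 genes and carry no test.

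No member was called in AT22 over S288C as labelled. With the second array turned, SIN3 was called lower, against 1.2% of all genes called higher and 2.83% lower. By the deposited z-scores, given for 31 of the 32 values, CYC8 in TAT12 over S288C and TUP1 in TAT12 over AT22 passed 2 in absolute value. Over all genes the deposited scores passed 2 for 4.42% in AT22 over S288C, 4.03% in TAT12 over S288C, 4.67% in TAT12 over TTY23 and 4.33% in TAT12 over AT22. The recomputed and deposited z-scores had the same sign in 24 of the 31 values. The direction of the deposited scores was set by their correlation with the recomputed ratios over all genes, so this count is partly built in.

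**Figure D3:**
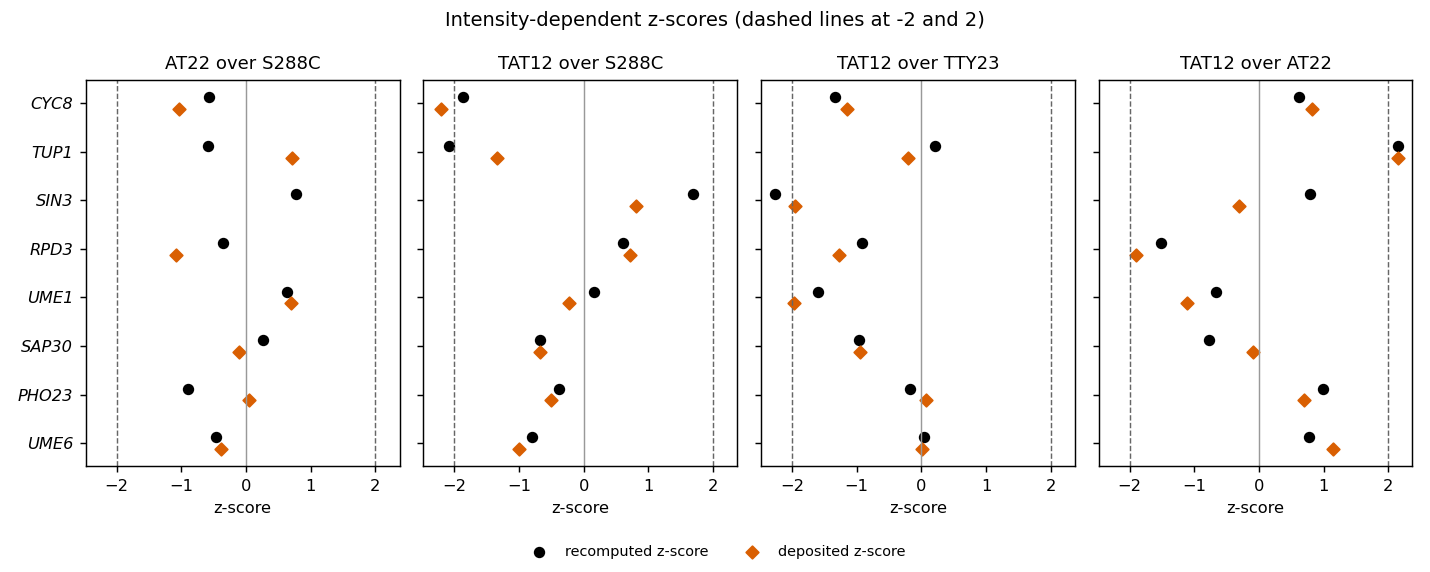
Recomputed z-scores (black circles) and z-scores deposited by the authors (orange diamonds) of the 8 genes (rows) in the 4 comparisons (panels), with dashed lines at −2 and 2. CYC8 and TUP1 exchange sides of the line for TAT12 over S288C, and TUP1 lies past it in both calculations for TAT12 over AT22. No deposited value was given for SIN3 in AT22 over S288C.

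Set in order by the ratios over S288C, CYC8 was lowest in TAT12 (−0.61), then TTY23 by the indirect route (−0.27) and AT22 (−0.14, or −0.31 turned). TTY23 and AT22 were not apart by more than the distance between their arrays. The gap between TTY23 and TAT12 only repeats their direct swap, for every member, because the values of TTY23 were derived through TAT12. Values of both strains over S288C take the second array of TAT12 with S288C as labelled. The direct swap of TAT12 with AT22 ran against this order, since CYC8 lay above 0 on both of its arrays (0.18 and 0.24). For TUP1 the order was TTY23 (−0.46), TAT12 (−0.41) and AT22 (−0.15, or −0.26 turned), in which the array values of neighbours overlapped. Here too the direct swap ran the other way, with TUP1 called higher in TAT12 than in AT22 (0.17 and 0.36). For SIN3 it was TTY23 (1.07), TAT12 (0.53) and AT22 (0.22, or −0.72 turned). RPD3 followed with TTY23 at 0.35, TAT12 at 0.13 and AT22 at −0.12, or 0.53 turned.

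**Figure D4:**
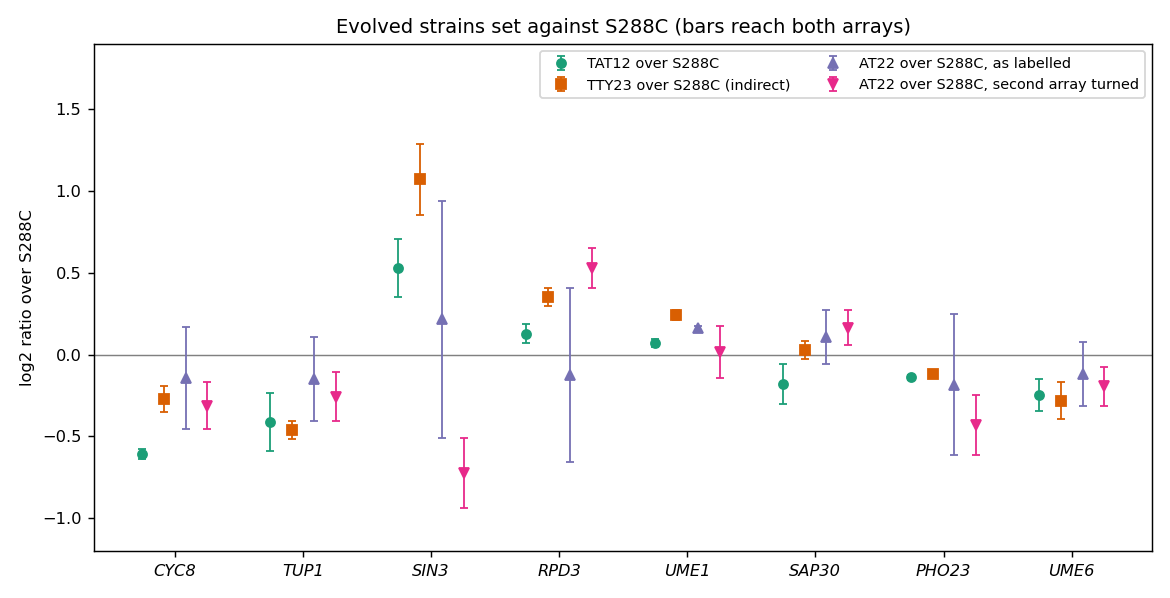
Log2 ratio over S288C of the 8 genes in TAT12, in TTY23 (through TAT12) and in AT22, as labelled and with its second array turned. Points are means and bars reach the values of both arrays. SIN3 in TTY23 is the highest point at 1.07, and SIN3 in AT22 crosses 0 when the second array is turned. Points of TAT12 and TTY23 take the second array of TAT12 with S288C as labelled.

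AT22, TAT12 and S288C were hybridised in a closed loop, so TAT12 over S288C can also be read as TAT12 over AT22 plus AT22 over S288C. For CYC8 the direct value was −0.61 and the value through AT22 was 0.07 as labelled, or −0.10 turned. For TUP1 the direct value was −0.41 and the value through AT22 was 0.11, or 0.01 turned. With the direct values as labelled, the lower CYC8 and TUP1 of TAT12 were thus not met at that size through AT22. This held in either direction of the second array of AT22 with S288C. SIN3 gave 0.53 directly and 0.36 through AT22, or −0.58 turned. The sign was the same along both routes for 3 of 8 members as labelled and 4 of 8 turned, and for 44.9% and 56.5% of all genes. The routes differed by a median of 0.28 over all genes as labelled and 0.19 turned. The indirect values of TTY23 over S288C could not be checked in this way.

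Genes that act with these corepressors or are repressed by them were taken in 13 lists of 95 genes, all of them on the array on 93 probes. Over the lists together, 1 gene was called higher and 2 lower in TAT12 over S288C, 5 higher and 0 lower in TAT12 over TTY23, 4 higher and 0 lower in TAT12 over AT22, and 1 higher and 2 lower in AT22 over S288C. As a share of the 95 genes these are 1.05% and 2.11%, 5.26% and 0%, 4.21% and 0%, and 1.05% and 2.11%, beside the shares of all genes above. For AT22 over S288C in the turned direction, 0 were called higher and 5 lower (5.26% of the lists), beside 1.2% of all genes called higher and 2.83% lower. The 5 genes were HDA2 (mean −0.87, z-score −2.95), SPO16 (mean −0.77, z-score −2.47), SUC2, HXK1 and HXT4.

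Among the partners, the 6 other subunits of the large Rpd3 complex held 1 call. DEP1 was lower in AT22 than in S288C at −0.63 and −0.94 (z-score −2.45), and was not above the empty spots on at least 1 array. With the second array turned its mean was 0.15. RXT2 had the highest log2 ratio of the list, 1.85 and 0.29 in TAT12 over S288C (mean 1.07), but stayed under the threshold (z-score 1.84). EAF3 and RCO1, the subunits particular to the small complex, held no call. Of 11 other deacetylase genes, HDA2, a subunit of the Hda1 complex, was higher in TAT12 than in AT22 at 0.88 and 0.22 (z-score 3.01), and SNT1, of the Set3 complex, was higher in AT22 than in S288C at 0.15 and 1.00 (z-score 2.37). With the second array turned, SNT1 in AT22 over S288C had a mean of −0.42. The 11 acetyltransferase genes held no call, and of 10 DNA-binding recruiters of Cyc8-Tup1 only RFX1 passed 2, higher in TAT12 than in TTY23, with arrays of opposite sign at −0.19 and 0.61.

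Of the 18 early meiotic genes that Ume6 and Sin3-Rpd3 hold silent, 1 was called in TAT12 over TTY23 and 1 in TAT12 over AT22. The median log2 ratio of the list was −0.04 in TAT12 over S288C, 0.00 in TAT12 over TTY23, −0.03 in TAT12 over AT22 and 0.05 in AT22 over S288C. MEI4, needed for meiotic DNA breaks, was higher in TAT12 than in TTY23 at 0.46 and 0.50 (z-score 3.46). It was not above the empty spots on at least 1 of these arrays. ZIP1, of the synaptonemal complex, was higher in TAT12 than in AT22 at 0.28 and 0.49 (z-score 2.18). Of 6 other targets, INO1, the inositol synthesis enzyme, was higher in TAT12 than in S288C at 0.14 and 0.81 (z-score 2.46). It was lower in AT22 than in S288C at −0.52 and −0.73 (z-score −3.25). In each of these comparisons INO1 was not above the empty spots on at least 1 array. With the second array turned INO1 in AT22 over S288C had a mean of 0.10. Its call in TAT12 over S288C rests mainly on the second array, and with that array turned its arrays would have opposite signs.

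The calls among Cyc8-Tup1 targets lay in the glucose-repressed and the flocculation genes. HXK1, a hexokinase isoenzyme low in high glucose, was higher in TAT12 than in TTY23 at 0.95 and 0.91 (z-score 3.40) and higher in TAT12 than in AT22 at 0.82 and 0.37 (z-score 3.17). HXT4, a hexose transporter, was higher in TAT12 than in TTY23 at 0.92 and 0.60 (z-score 2.37) and higher in TAT12 than in AT22 at 1.39 and 0.94 (z-score 4.04). Both genes were above the empty spots on these arrays.

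SUC2, the invertase, was lower in TAT12 than in S288C at −0.31 and −1.64 (z-score −3.54). This call rests mainly on the second array, whose direction is not settled, and with it turned the arrays would have opposite signs. HXK1 gave 0.69 and −0.16 in TAT12 over S288C and HXT4 gave 0.37 and −0.82, each with arrays of opposite sign as labelled. In AT22 over S288C the arrays had opposite signs for all of them: SUC2 gave −0.84 and 0.90, HXK1 −0.68 and 1.01, and HXT4 −1.29 and 1.42. With that array turned, these 3 genes were called lower in AT22 than in S288C, with means of −0.87, −0.85 and −1.35. HXT2, GAL1 and ADH2, the other genes of this list, passed in no comparison.

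FLO11, a cell-surface flocculin, was higher in TAT12 than in TTY23 at 0.79 and 0.70 (z-score 2.38). The probe of FLO1, which also names FLO5 and FLO9, was lower in TAT12 than in S288C at −0.93 and −0.54 (z-score −2.06), and another probe with the same 3 names gave 0.27 and −0.30. The 6 hypoxic, 6 a-specific, 4 DNA damage and 4 osmotic target genes held no call in the 4 comparisons, and their medians lay between −0.13 and 0.18. In TTY23 over S288C by the indirect route, SUC2 (−1.09), HXT4 (−0.98), MEI4 (−0.46) and SPO11 (−0.42) were called lower and RNR2 (0.44), a ribonucleotide reductase subunit, was called higher, 1.05% higher and 4.21% lower of the 95 genes. Of these, HXT4 alone was above the empty spots on all arrays of both source comparisons. MEI4 and RNR2 fell short of this in each source comparison, SUC2 in TAT12 over TTY23, and SPO11 in TAT12 over S288C. Values of this contrast take the second array of TAT12 with S288C as labelled. The median of the glucose-repressed list was −0.42 in this indirect contrast. In the turned direction of AT22 over S288C it was −0.60, and that of the flocculation genes was −0.40. The plot of the target lists shows each gene.

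**Figure D5:**
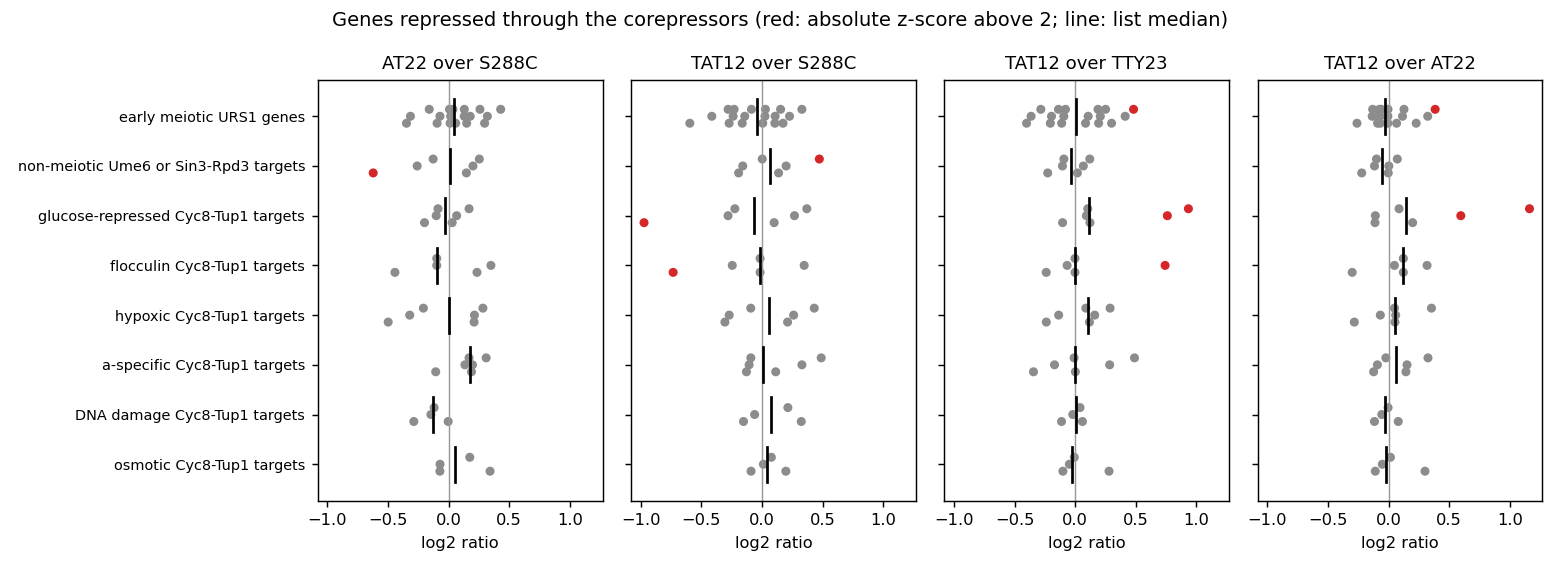
Mean log2 ratio of each gene (points) of 8 lists of genes repressed through Sin3-Rpd3 or Cyc8-Tup1 (rows) in the 4 comparisons (panels). Red points have an absolute z-score above 2 and black lines are list medians. The highest point is HXT4 in TAT12 over AT22, and the list medians lie between −0.13 and 0.18 with AT22 over S288C as labelled.

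For each member, the gene with the most similar log2 ratios over the 8 arrays was found among 2167 or 2168 genes above the empty spots on all arrays, by the smallest Euclidean distance. These were LEU2 for CYC8 (distance 0.39), SPO77 for both TUP1 (0.29) and UME6 (0.28), LSB3 for SIN3 (0.54), RBA50 for RPD3 (0.30), YPT6 for SAP30 (0.25), CCS1 for UME1 (0.24) and YGL039W for PHO23 (0.30). SIN3 was the member with the most distant nearest gene. UME1, TUP1, CYC8 and SAP30 were not above the empty spots on all arrays, so they could not be found as a nearest gene. Of the members that could be, SIN3, RPD3, UME6 and PHO23, none was the nearest gene of any member.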

How the data were processed

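Total RNA of 4 strains was compared on 2-colour arrays of spotted oligonucleotides in 4 dye swaps on 8 arrays. The authors deposited, for each array, the spot intensity and its surrounding background for each dye, not normalized (13056 spots an array). The authors also deposited a score per gene and comparison, an intensity-dependent z-score from genArise (version, background and normalization steps not given in the sources used here). The series table holds the same scores, equal within 1e-06 for at least 99.9% of matched names, with medians of 0.11, 0.0052, −0.029 and −0.10 for AT22 against S288C and for TAT12 against S288C, TTY23 and AT22 in turn, and its centring is not stated. The direction of these scores was found against the scanner values (r from 0.77 to 0.86 across genes).

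With limma 3.58.1 in R 4.3.3, the background was corrected by normexp (offset 50) and log2 ratios were normalized within arrays by loess, with control spots at weight 0. Duplicate spots were averaged, the strain order of the swapped array was turned, and both arrays were averaged. Each z-score was taken within a window of 100 genes of similar brightness, from their mean and SD (Python 3.11.15, numpy 2.4.6, pandas 2.3.3). The calculation was run on simulated data with planted doublings and halvings, a size no member reached in the 4 comparisons. That run does not show how smaller changes are recovered. With n = 1 per comparison no p-value was computed. The number of RNA extractions per strain is not stated. The number of arrays limits the precision.

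The members and gene lists were chosen with earlier results of these data known, and the lists were drawn from general knowledge of the complexes. Named genes are the 8 members, the list genes past a z-score of 2 with the same sign on both arrays (or, where none is, the highest or lowest of a list) and the nearest gene of each member, and RFX1, RXT2 and the other glucose-repressed genes were named after their values were seen. Of the 6336 genes, 5763 matched the reference annotation by systematic name. Coordinates are left out, because no build is named in the files. Alternatives covered background correction, normalization, dim spots, single arrays, the z-score, the threshold, the deposited scores, the direction of 1 array and the loop.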

Additional observations from a re-analysis of the deposited data

How the results depend on the processing

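The count of members past the threshold was 0 in AT22 over S288C and 1 in each of the other comparisons. In AT22 over S288C it was 1 (SIN3) with the second array turned. In TAT12 over S288C it was 2 with local background subtracted (CYC8 and TUP1), 0 with only genes above the empty spots, 0 on the first array alone, 0 on the second array alone, 0 with a window of 200 genes, 3 at a z-score past 1 (SIN3, CYC8 and TUP1) and 0 at a fold change of 2. In TAT12 over TTY23 it was 0 on the first array alone, 0 on the second array alone, 0 by the deposited z-scores, 3 at a z-score past 1 (SIN3, UME1 and CYC8) and 0 at a fold change of 2. In TAT12 over AT22 it was 0 with only genes above the empty spots, 0 on the first array alone, 0 with the z-score over all genes, 0 by least squares over the loop, 2 at a z-score past 1 (RPD3 and TUP1) and 0 at a fold change of 2. At a z-score past 1, 30.8% of all genes passed in TAT12 over S288C, 29.0% in TAT12 over TTY23 and 30.1% in TAT12 over AT22. Over the other alternatives that moved a count, the share of all genes was 0.08 to 0.71% at a fold change of 2 and 3.49 to 5.67% elsewhere.

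A count of 1 hid a change of gene in TAT12 over S288C, where TUP1 passed in the main calculation, CYC8 by the z-score over all genes and by the deposited z-scores, and SIN3 by least squares over the loop. The causes were not tested. The sign of a member's value differed from the main one in 0 of 32 values without background correction, 0 of 32 with local background subtracted, 1 of 32 with median centring, 3 of 32 on the first array alone, 7 of 32 on the second array alone, 7 of 31 by the deposited z-scores, 2 of 8 for AT22 over S288C in the turned direction and 3 of 24 by least squares. The second array of TAT12 with S288C was not turned in any of these counts. No paired analysis was possible because each comparison has 1 replicate. Signal limits the reading of UME1 on all arrays, of TUP1 on 2 arrays, and of CYC8 and SAP30 on 1 array each.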
